A study of Mus musculus with 6 samples.

Results

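The collagen genes of NIH3T3 fibroblasts were followed clone by clone. Members were all genes whose symbol in the array's platform annotation has the form Col, number, a, number. They were 41 genes on 91 probes, of 19057 named genes and 45281 probes on the array. By the kind of assembly that the chains build, 11 genes were fibrillar, 6 belonged to basement membrane, 5 to beaded filaments, and 19 to other types. The last group held 7 fibril-associated collagens, 3 network formers, 1 anchoring fibril collagen, 4 transmembrane collagens, 2 multiplexins and 2 genes in no class. No probe carried the names Col6a3, Col12a1, Col20a1 or Col21a1, which are not analysed here.

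Collagens are proteins of the extracellular matrix in which 3 alpha chains wind into a triple helix, either of one chain type or of several. Type I collagen, built from Col1a1 and Col1a2 chains, is the main fibril of skin, tendon and bone. Type V collagen sits inside type I fibrils and is needed for them to start, and type III accompanies type I in soft tissue. Fibroblasts are the main makers of these fibrils. They also secrete type IV collagen, the network of basement membranes, and type VI collagen, which forms beaded filaments around cells.

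The series asked how a gain of FEAT changes the transcripts of NIH3T3 cells, fibroblasts of NIH Swiss mouse embryos that grow without limit in culture. Total RNA of 6 stable lines was measured on 1 Illumina bead array per line. FEAT 3, FEAT 15 and FEAT 20 carried the human FEAT reading frame in pEF-DEST51, a plasmid in which the elongation factor 1alpha promoter drives the insert. Each was grown from 1 colony picked after 7 days in blasticidin S at 10 µg/ml and was kept because it overexpressed FEAT protein, so each FEAT line is 1 selected clone. The controls, named ΔccdB in the labels and control 1, 2 and 3 here, were stably transfected with the same plasmid after deletion of its ccdB gene. All 6 lines were therefore transfected and carried the vector backbone. Whether the controls were also picked as single colonies, and for how long and at what drug dose they were selected, is not given in the sources used here. Nor is the slide on which, or the passage at which, each line was measured. Lines of both groups are called clones below for short. All p-values measure the spread between lines, which includes the difference between one clone and the next. In a culture measured in bulk, fewer cells of a kind and less RNA per cell cannot be told apart.

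Mean intensity per array was 616 to 735 before scaling. On each array, 36.9% to 39.8% of probes exceeded its background limit, which was 96.3 to 102 in the same unscaled units. The limit was applied before scaling, so it cannot be compared directly with the scaled intensities printed below (factors 0.925 to 1.10). Intensities below are those of the deposited table, in which each array was multiplied so that its mean was 680, and they still contain background. Log2 differences are FEAT minus control after background correction and quantile normalization, so they can exceed the ratio of the printed intensities. Where 2 groups are said not to overlap, all 3 normalized values of one lay above all 3 of the other. Of 10 fibroblast markers, 7 were above background on all 6 arrays, and Fap, Fbln1 and Dpt were above it on none. The summed intensity of the 10 was 31906 to 33860 in controls and 32719 to 37066 in FEAT clones. Most of that sum was Vim, at 22216 to 24763 in controls and 21502 to 24669 in FEAT clones. Of the 9 tested, Mfap5 was higher and Cd34 lower in every FEAT clone (7.95% and 7.24% of all genes). No marker of endothelium or macrophages was above background on all arrays, and of 5 fat cell markers only Lpl was. Eef1aknmt, the mouse counterpart of FEAT, differed by 0.03 on the log2 scale at its brightest probe (limma, adjusted p = 0.979). Its 4 other tested probes were all negative, at -0.25, -0.17, -0.11 and -0.59. The last of these was above background on all 3 control arrays and no FEAT array, with no overlap (limma adjusted p = 0.146). None of these probes checks the human insert.

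Of the 41 collagen genes, 16 were above the background limit on all 6 arrays, 8 on some arrays, and 17 on none with any probe. Those above it on all arrays were 5 fibrillar genes (Col1a1, Col1a2, Col3a1, Col5a1 and Col5a2), 4 basement membrane genes (Col4a1, Col4a2, Col4a5 and Col4a6), Col6a1 and Col6a2 of the beaded filaments, and 5 others (Col7a1, Col8a1, Col16a1, Col17a1 and Col18a1). The genes at or near background included the cartilage collagens Col2a1, Col11a2, Col9a1 and Col10a1, each above it on some arrays only. Of the 41, 30 genes had a probe among the brightest 60% that were tested. No collagen gene passed an adjusted p of 0.05 in limma, against 30 of 13315 genes tested (0.225%). With limma's trended and robust variance, 1 did (Col5a1), against 42 of 13315 genes tested. At an unadjusted p under 0.05, 6 collagens were higher and 1 was lower in FEAT clones, where the share of all genes was 5.20% higher and 4.94% lower, or 10.1% in either direction. All 6 were fibrillar. Log2 differences were above 0 for 18 of the 30 collagens and for 51.6% of all genes tested.

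The fibrillar genes that were higher at that unadjusted threshold were Col1a1, Col1a2, Col3a1, Col5a1, Col5a2 and Col5a3. The 250 bases before the RefSeq start site (GRCm38.p6) are shown for the 4 of them in the promoter table, since these are the members on which the comparison turns. Col1a1 and Col5a2 are named only. Capitals mark a CCAAT box (CCAAT), a GC box (GGGCGG) or a TATA box (TATAAA) on either strand.
Col1a2, chr6:4505368-4505617, plus strand: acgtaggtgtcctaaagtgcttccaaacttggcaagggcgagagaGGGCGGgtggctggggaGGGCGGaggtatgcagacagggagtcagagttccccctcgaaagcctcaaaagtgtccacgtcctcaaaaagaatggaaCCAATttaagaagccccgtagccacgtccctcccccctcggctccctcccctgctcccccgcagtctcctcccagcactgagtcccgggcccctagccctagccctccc
Col3a1, chr1:45311288-45311537, plus strand: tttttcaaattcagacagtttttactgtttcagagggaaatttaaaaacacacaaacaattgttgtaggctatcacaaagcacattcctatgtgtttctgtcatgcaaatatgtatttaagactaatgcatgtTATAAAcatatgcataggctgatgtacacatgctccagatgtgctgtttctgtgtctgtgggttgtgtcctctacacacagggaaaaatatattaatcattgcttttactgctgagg
Col5a1, chr2:27886175-27886424, plus strand: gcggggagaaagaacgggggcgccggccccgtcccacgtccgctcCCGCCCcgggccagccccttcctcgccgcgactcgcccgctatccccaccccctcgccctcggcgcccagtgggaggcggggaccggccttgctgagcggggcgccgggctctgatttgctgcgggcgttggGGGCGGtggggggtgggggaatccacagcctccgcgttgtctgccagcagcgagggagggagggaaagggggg
Col5a3, chr9:20815068-20815317, minus strand: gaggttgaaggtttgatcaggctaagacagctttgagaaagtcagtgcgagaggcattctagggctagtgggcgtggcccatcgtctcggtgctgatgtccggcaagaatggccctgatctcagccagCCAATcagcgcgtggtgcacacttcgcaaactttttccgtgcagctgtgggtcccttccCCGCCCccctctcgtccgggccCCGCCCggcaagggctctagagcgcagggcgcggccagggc

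The Col1a2 window held a CCAAT box 109 bases and GC boxes 205 and 188 bases before the start, and its GC content was 62.0%. Col5a1 held GC boxes at 205 and 73 bases in a window of 76.4% GC. The Col5a3 window, at 62.8% GC, held a CCAAT box at 122 bases and GC boxes at 63 and 41 bases. Col3a1 stood apart in composition, with 35.2% GC, a TATA box at 117 bases and neither of the other motifs. The median over all 32851 windows of the table was 52.4% GC. Of all windows, 33.8% held CCAAT, 32.7% GGGCGG and 12.4% TATAAA. Among the 33 collagen genes with a window the counts were 12, 21 and 5. The AP-1 motif TGANTCA, in 6.70% of all windows, was in 1 collagen window and in none of the 4 shown. These motifs do not overlap in the sequences printed, and a match is a string of letters, not a measured site.

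The highest log2 differences among the collagens were those of Col5a2 and Col5a1, chains of type V collagen. Col5a1, the chain found in every common form of type V, measured 3935, 4763 and 4135 in controls 1, 2 and 3, and 7558, 7989 and 6080 in FEAT 3, 15 and 20. The lowest FEAT clone was above the highest control. The log2 difference was 0.74 (SE 0.15, 95% interval 0.40 to 1.08, n = 3 and 3), or 1.67-fold, the rank 87 from the top among 13315 genes, with an adjusted p of 0.122 in limma. That adjusted p lay between 0.0309 and 0.440 over the alternative settings, and it was under 0.05 with the trended and robust variance.

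Col5a2, the partner chain of type V, measured 262, 399.7 and 274 in controls and 695, 402 and 501 in FEAT clones. FEAT 3 was the highest, while FEAT 15 was level with control 2, so the normalized groups overlapped. FEAT minus control on the log2 scale was 0.83 (SE 0.24, 95% interval 0.30 to 1.37, limma adjusted p = 0.285). A dimmer Col5a2 probe gave 0.84 with no overlap (limma adjusted p = 0.149), and another gave 0.52 (limma adjusted p = 0.353). Col5a3, a chain found in some type V molecules, lay near background, at 98.0, 101 and 102 in controls and 154, 125 and 115 in FEAT clones. It was above the limit on 2 of 3 control arrays and on all 3 FEAT arrays, and its groups did not overlap (log2 difference 0.60, SE 0.16, limma adjusted p = 0.220).

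Both chains of type I collagen were higher on average in FEAT clones, but the clones differed in which chain stood further above the controls. Col1a1 measured 3434, 5165 and 3919 in controls and 8621, 6114 and 4844 in FEAT clones. FEAT 3 stood highest, and FEAT 20 was below control 2. On the log2 scale the groups differed by 0.61 (SE 0.23, 95% interval 0.11 to 1.11, limma adjusted p = 0.434). Without FEAT 3 it was 0.36 (limma adjusted p = 0.734, range over all settings 0.229 to 0.767). Col1a2 measured 372, 392 and 364 in controls and 461, 526 and 528 in FEAT clones. Here FEAT 3 was the lowest of the FEAT clones, and all 3 were above every control. This gave a log2 difference of 0.44 (SE 0.13, 95% interval 0.16 to 0.72, limma adjusted p = 0.267). On the normalized scale Col1a1 was above the control mean by 1.10 in FEAT 3, 0.54 in FEAT 15 and 0.18 in FEAT 20, against 0.36, 0.48 and 0.48 for Col1a2.

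Col3a1, whose chain forms type III collagen alone, measured 285, 356 and 258 in controls and 545, 457 and 365 in FEAT clones. The groups did not overlap, although FEAT 20 exceeded control 2 only narrowly, with normalized values of 0.30 above the control mean for both after rounding. The groups' log2 means differed by 0.65 (SE 0.20, 95% interval 0.22 to 1.09, limma adjusted p = 0.299). A second probe, above background on 1 control and 2 FEAT arrays, gave 0.33 (limma adjusted p = 0.664). Col3a1 and Col5a2 are neighbouring genes on chromosome 1.

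The remaining fibrillar genes with a signal were cartilage or minor collagens. Col27a1 measured 98.9, 90.1 and 93.6 in controls and 108, 106 and 105 in FEAT clones, above background on 1 control and 2 FEAT arrays. Its groups did not overlap (log2 difference 0.29, 95% interval -0.01 to 0.59, limma adjusted p = 0.572). Col11a2 and Col2a1, at log2 differences of 0.14 and 0.16, had overlapping groups. In all, 5 of 10 tested fibrillar genes were higher in every FEAT clone than in every control, Col1a2, Col3a1, Col5a1, Col5a3 and Col27a1, where 7.95% of all genes tested were. The median log2 difference of the 10 was 0.52, and that of all genes tested was 0.0071. With cyclic loess normalization the count was 4, without Col3a1, and with the deposited table it was 6, with Col5a2.

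**Figure D1:**
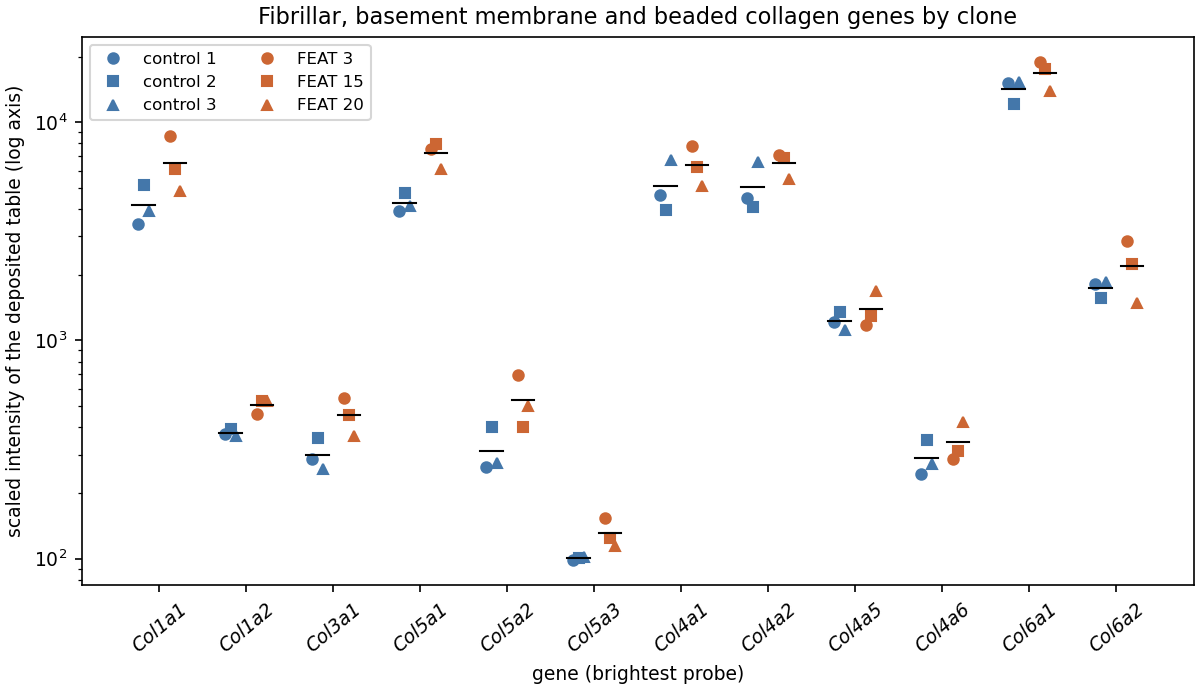
Scaled intensity (log axis) of the fibrillar, basement membrane and beaded collagen genes above background on all 6 arrays, with Col5a3, 1 point per clone (controls in blue, FEAT clones in orange) and a line at each group's mean. The 3 FEAT clones sit above all controls for Col5a1 (6080 to 7989 against 3935 to 4763) and Col1a2, while the groups overlap for Col1a1, Col4a1, Col4a2 and Col6a1.

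The basement membrane genes were positive on average and overlapped between groups. Col4a1 and Col4a2, the chains of the common type IV network, measured 4637, 3982 and 6686 and then 4487, 4112 and 6552 in controls 1, 2 and 3. In FEAT clones they measured 7773, 6241 and 5084 and then 7115, 6889 and 5473. Control 3 was high for both, above FEAT 20 and close to FEAT 15. The log2 difference was 0.33 for Col4a1 (95% interval -0.15 to 0.80, limma adjusted p = 0.700) and 0.38 for Col4a2 (95% interval -0.04 to 0.80, limma adjusted p = 0.592). Both genes start on chromosome 8 on opposite strands in the RefSeq table, Col4a1 at 11312826 (minus) and Col4a2 at 11312805 (plus). The starts are thus 21 bases apart with the transcripts overlapping there.

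Col4a5 and Col4a6, chains of a more restricted type IV network, followed another order over the clones. Col4a5 measured 1216, 1350.0 and 1119 in controls and 1172, 1301 and 1692 in FEAT clones. Col4a6 measured 243, 349.7 and 272 in controls and 286, 311 and 425 in FEAT clones. FEAT 20, the lowest FEAT clone for Col4a1 and Col4a2, was the highest here, and it was also the highest on a second probe of each gene. The log2 differences were 0.14 (95% interval -0.20 to 0.48, limma adjusted p = 0.841) and 0.25 (95% interval -0.17 to 0.68, limma adjusted p = 0.748). These 2 genes also lie on opposite strands, on the X chromosome, with starts 1343 bases apart and no such overlap.

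How even the ratio of partner chains was over the clones was described by the SD, over the 6 clones, of the log2 ratio of one to the other. It was 0.11 for Col4a1 over Col4a2, although each gene alone varied with an SD of 0.37 and 0.34. It was 0.16 for Col4a5 over Col4a6, whose own SDs were 0.19 and 0.31. The ratio of Col6a1 to Col6a2 had an SD of 0.21, beside 0.23 and 0.38 for the genes. For Col1a1 over Col1a2 it was 0.39, beside 0.49 and 0.25, and for Col5a1 over Col5a2 it was 0.36, beside 0.44 and 0.60. These SDs pool controls and FEAT clones, rest on 1 probe per gene, and were not tested against each other. No difference between FEAT and control clones was detected in the 5 ratios by a two-sided exact permutation test (p = 0.5 to 0.9, adjusted p = 0.9 over the 5 pairs), and with 3 clones against 3 such a test cannot go below 0.1.

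Of the beaded filament genes, Col6a1 was bright, at 15133, 12151 and 15254 in controls and 18964, 17507 and 13925 in FEAT clones. FEAT 20 was below controls 1 and 3. FEAT minus control on the log2 scale was 0.29 (95% interval -0.04 to 0.63, limma adjusted p = 0.607), and the other tested probes gave 0.24 and -0.01. Col6a2 measured 1809, 1570 and 1856 in controls and 2851, 2250 and 1486 in FEAT clones, a log2 difference of 0.27 (95% interval -0.23 to 0.77, limma adjusted p = 0.776). It was 0.0084 without FEAT 3 and 0.55 without FEAT 20. Its second probe disagreed in FEAT 20. It measured 247, 269 and 237 in controls and 385, 339.6 and 346 in FEAT clones, with no overlap and a log2 difference of 0.58 (SE 0.14, limma adjusted p = 0.171). Relative to the control mean on the log2 scale, FEAT 20 was at -0.30 on the brighter probe and at 0.52 on the dimmer one. Col6a1 and Col6a2 are neighbours on chromosome 10.

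Of the 13 other collagens tested, 11 had a negative log2 difference, where 6442 of all 13315 genes tested did. The median of the 13 was -0.096. Only 5 of the 13 were above background on all 6 arrays, and the rest were above it on some arrays or none. Col7a1, the anchoring fibril chain, was 194, 262 and 193 in controls and 247, 253 and 293 in FEAT clones (log2 difference 0.36, 95% interval -0.01 to 0.73, limma adjusted p = 0.563), and control 2 lay inside the FEAT range. Col8a1, a short-chain network collagen, gave -0.08 and 0.03 on its probes. Col16a1, a fibril-associated collagen, ranged from 5507 to 8983 in controls and from 5238 to 8821 in FEAT clones, a log2 difference of -0.06 (95% interval -0.54 to 0.42). Col18a1, the source of endostatin, gave -0.12 (95% interval -0.42 to 0.19).

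Col17a1, the transmembrane collagen of epithelial hemidesmosomes, was above background on all 6 arrays with 3 probes. On the brightest it measured 449.8, 365 and 653 in controls and 352, 478 and 342 in FEAT clones, with control 3 the highest. On the log2 scale the groups differed by -0.35 (95% interval -0.83 to 0.14, limma adjusted p = 0.687), and the other probes gave -0.16 and -0.30. Of 6 epithelial markers, Krt14 and Cdh1 were above background on all 6 arrays and Epcam, Krt5, Krt8 and Krt18 on none. The summed epithelial marker intensity was 16411 to 24429 in controls and 19208 to 28612 in FEAT clones. Krt14 made up nearly all of that sum, at 15983 to 24004 in controls and 18824 to 28128 in FEAT clones. The part of these markers in the Col17a1 values was not tested.

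Col9a1 is a fibril-associated collagen of cartilage. Among the brightest probes, it was the only collagen lower at an unadjusted p under 0.05 (4.94% of all genes). It was also the only one lower in every FEAT clone, where 7.24% of all genes tested were. Dimmer probes of Col14a1 and Col11a1, genes not above background on any array, were also lower with no overlap, at -0.46 and -0.30. Col9a1 measured 111, 123 and 113 in controls and 101, 95.2 and 103 in FEAT clones. These values lie close to background, above it on all 3 control arrays and on 1 FEAT array. This gave a log2 difference of -0.36 (SE 0.14, 95% interval -0.66 to -0.07, limma adjusted p = 0.429), and a second probe, not above background, gave 0.01. Of the markers of cartilage and bone, Sox9 alone was above background on all 6 arrays, and Acan, Matn1, Sp7 and Ibsp were above it on none. Col25a1, a transmembrane collagen, was above background on 1 control and 2 FEAT arrays (log2 difference 0.33, limma adjusted p = 0.599). The value was 0.16 without control 3, and 0.69 without FEAT 3, where its other probe became the brightest. Col10a1 gave -0.19 and Col26a1 -0.05, both near background.

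**Figure D2:**
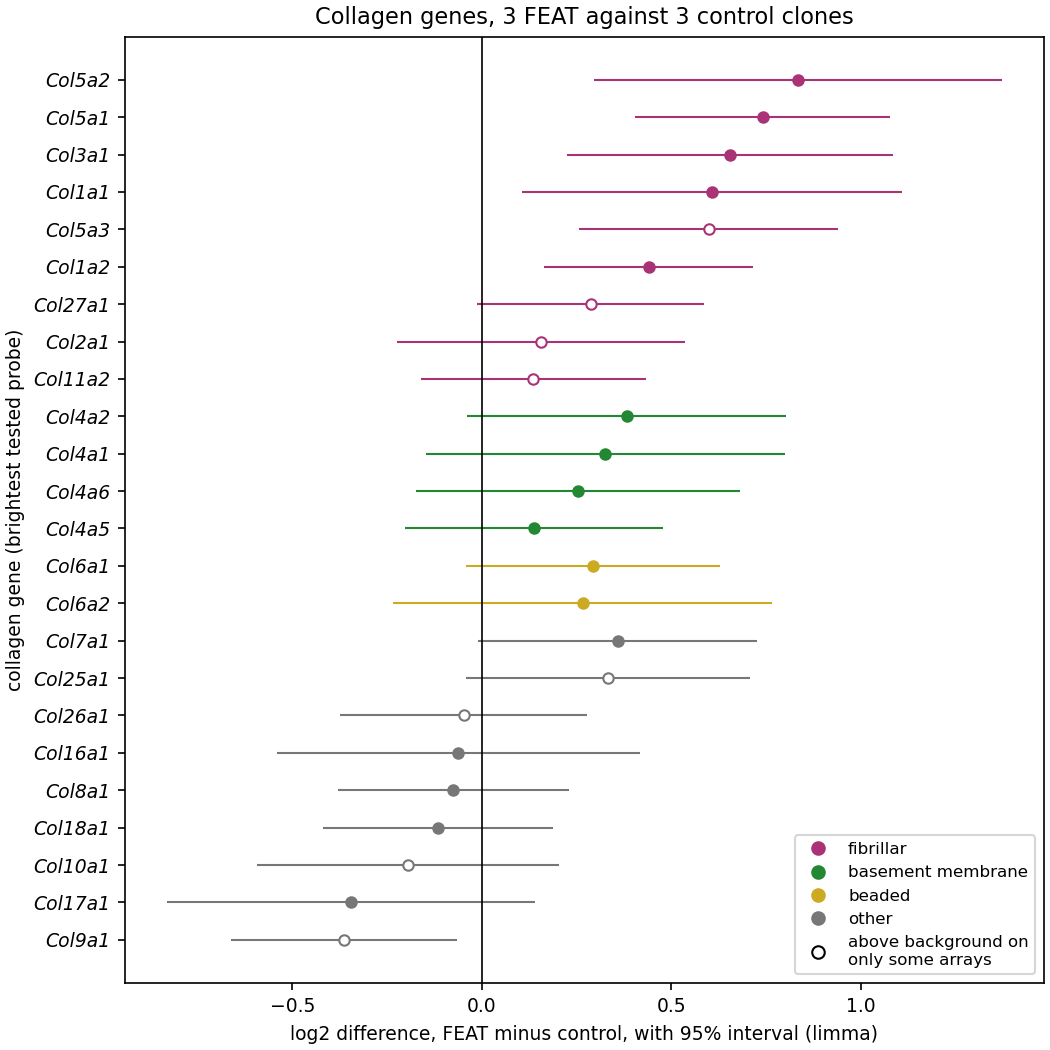
Log2 difference, FEAT minus control, with its 95% interval from limma for the 24 collagen genes above background on at least 1 array, ordered within each group. Open symbols are genes above background on only some arrays. The intervals of 6 fibrillar genes lie above 0, from Col5a2 at 0.83 to Col1a2 at 0.44, and that of Col9a1 lies below 0.

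The 3 FEAT clones did not carry the pattern equally. The median of the 10 tested fibrillar genes was above the control mean by 0.61 in FEAT 3, 0.44 in FEAT 15 and 0.32 in FEAT 20 on the normalized log2 scale, and the controls lay between -0.09 and 0.11. Of the 16 genes above background on all arrays, FEAT 3 was the highest FEAT clone for 8, FEAT 15 for 4 and FEAT 20 for 4. FEAT 20 was the lowest FEAT clone for Col1a1, Col3a1, Col5a1, Col4a1, Col4a2, Col6a1, Col6a2, Col16a1 and Col17a1, and the highest for Col1a2, Col4a5, Col4a6 and Col7a1.

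**Figure D3:**
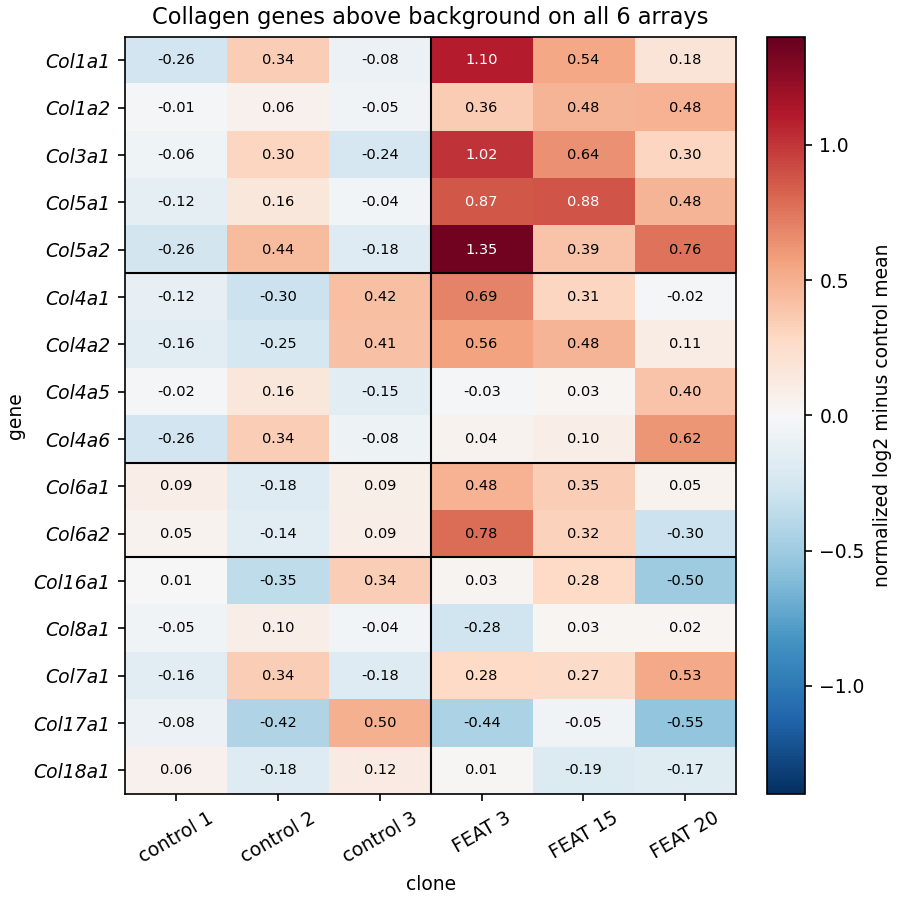
Normalized log2 value of each clone minus the mean of the 3 controls for the 16 collagen genes above background on all 6 arrays (blue below, red above). FEAT 3 reaches 1.35 for Col5a2 and 1.10 for Col1a1, while FEAT 20 ranges from -0.55 for Col17a1 to 0.76 for Col5a2.

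Of 5 tested markers of smooth muscle, 3 were also higher in every FEAT clone, where 7.95% of all genes tested were. The brightest probes of the other 2, Acta2 and Des, had overlapping groups. Tagln and Myl9, proteins of the smooth muscle actin apparatus, and Actg2, smooth muscle gamma actin, had log2 differences of 1.82, 1.36 and 2.69 with no overlap (limma adjusted p = 0.0896, 0.162 and 0.10), and for each of them FEAT 20 was the lowest FEAT clone. Acta2, smooth muscle alpha actin, gave -0.09 on its brightest probe and 0.96 to 1.05 on 3 others, and Des, the muscle filament protein desmin, gave -0.13. The list's summed intensity was 34037 to 38840 in controls, and 42613, 35439 and 31907 in FEAT 3, 15 and 20. Most of that sum was the brightest Acta2 probe, at 37843, 31251 and 30308 in FEAT 3, 15 and 20. The sum thus follows the Acta2 probe that differs from the 3 others, which are not in it. Of its 7 genes, 5 were above background on all 6 arrays, and Myh11 and Cnn1, markers of mature smooth muscle, were above it on none. The part of these genes in the collagen values was not tested.

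Procollagen chains are hydroxylated, glycosylated and folded in the endoplasmic reticulum before export. None of the 20 tested genes of this step passed the adjusted threshold in limma, 3 were higher at an unadjusted p under 0.05 (5.20% of all genes), and the median log2 difference was 0.10. Of these 3, 1 was not above background. Crtap, a subunit of the prolyl 3-hydroxylase complex, measured 1873, 2005 and 1738 in controls and 2255, 2893 and 2156 in FEAT clones, with no overlap. Its log2 difference was 0.34 (limma adjusted p = 0.534), and 0.26 on a second probe. P3h3, of the prolyl 3-hydroxylase family, gave 0.56 with overlapping groups (limma adjusted p = 0.403), and Creb3l1, a transcription factor of the secretory pathway, was the gene above background on no array. Of 9 genes of export from the endoplasmic reticulum, 1 was higher at an unadjusted p under 0.05 (5.20% of all genes). This was Sec24d, a coat protein of export vesicles, at 290.0, 308 and 347 in controls and 407, 402 and 365 in FEAT clones (log2 difference 0.34, limma adjusted p = 0.485). Sec23a and Tfg gave 0.16 and -0.15.

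Outside the cell, propeptides are removed and fibrils are crosslinked. Of 6 tested genes of propeptide cleavage, Mep1b was higher and Pcolce2 lower at an unadjusted p under 0.05 (5.20% and 4.94% of all genes). However, Mep1b was above background on 1 control and 3 FEAT arrays, and Pcolce2 and Mep1a on none. Other tested probes had overlapping groups, with log2 differences of 0.08 and 0.0022 for Mep1b and -0.05 for Pcolce2. Of 5 crosslinking genes, 2 were higher at that threshold, and the median log2 difference was 0.34. Loxl1, a lysyl oxidase, measured 9462, 6451 and 8885 in controls and 12208, 12879 and 11286 in FEAT clones, with no overlap (log2 difference 0.58, SE 0.16, limma adjusted p = 0.258). Lox, the main lysyl oxidase of fibrillar collagen, measured 12088, 19252 and 9902 in controls and 21400, 17062 and 21633 in FEAT clones. Control 2 lay above FEAT 15. The groups' log2 means differed by 0.61 (limma adjusted p = 0.412), and without control 2 it was 0.88 (limma adjusted p = 0.0456, range over all settings 0.0456 to 0.723). Loxl3, above background on 1 control array, gave -0.29.

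Among 11 tested proteins that sit on or organize fibrils, 3 were higher at an unadjusted p under 0.05 (5.20% of all genes), all 3 with no overlap (7.95% of all genes), and the median was 0.13. Fn1, fibronectin, on which cells lay down collagen fibrils, measured 4516, 5050 and 5823 in controls and 7574, 8417 and 6443 in FEAT clones. The log2 difference was 0.54 (SE 0.16, limma adjusted p = 0.268), and 3 other probes gave 0.57 to 0.62. Matn2, a matrilin, gave 0.52 (limma adjusted p = 0.232) and Bgn, the proteoglycan biglycan, 0.31 (limma adjusted p = 0.504).

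None of 7 tested collagen receptors was past an unadjusted p of 0.05, and the median was 0.21. Itgb1, the beta subunit of the collagen-binding integrins, gave 0.27 (limma adjusted p = 0.665) with no overlap (7.95% of all genes). A second Itgb1 probe gave 0.32 with overlapping groups (limma adjusted p = 0.673). Ddr1, a receptor kinase, gave 0.31. Itga11, the alpha subunit of a fibrillar collagen receptor, gave 1.02 (limma adjusted p = 0.655), with control 2 at 314 and the other controls at 82.3 and 79.7, against 192, 296 and 140.1 in FEAT clones. Control 2 was the only control above background for Itga11, and all 3 FEAT clones were above it. Without control 2 the Itga11 difference was 1.94 (limma adjusted p = 0.0182, range over all settings 0.0182 to 0.893). The controls left in that fit were below the background limit, so 1.94 has no measured control level behind it. A dimmer Itga11 probe gave 0.46 with overlapping groups (limma adjusted p = 0.684).

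Of 10 tested proteases that cut collagen and their inhibitors, 1 was higher and 1 lower at an unadjusted p under 0.05 (5.20% and 4.94% of all genes). Timp3, an inhibitor bound to the matrix, measured 5563, 5417 and 4750 in controls and 8705, 9448 and 7113 in FEAT clones, with no overlap. FEAT minus control on the log2 scale was 0.68 (SE 0.15, limma adjusted p = 0.149, range over all settings 0.0447 to 0.436), and the other probes gave 0.37 and 0.17. Mmp14, a membrane-bound collagenase, was lower in every FEAT clone on the normalized scale, at 4346, 4807 and 4788 in controls and 2744, 3181 and 4367 in FEAT clones. The table's FEAT 20 value was level with control 1. On the log2 scale the groups differed by -0.47 (SE 0.16, limma adjusted p = 0.395). A second Mmp14 probe, above background on no array, went the other way. It gave 0.16 with no overlap (limma adjusted p = 0.766). Timp1 gave 0.41 with overlapping groups (limma adjusted p = 0.584). Over the 7 lists, 0 genes passed the adjusted threshold in limma, while 11 were higher and 2 were lower at an unadjusted p under 0.05 of 68 tested, where the shares of all genes were 5.20% and 4.94%.

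**Figure D4:**
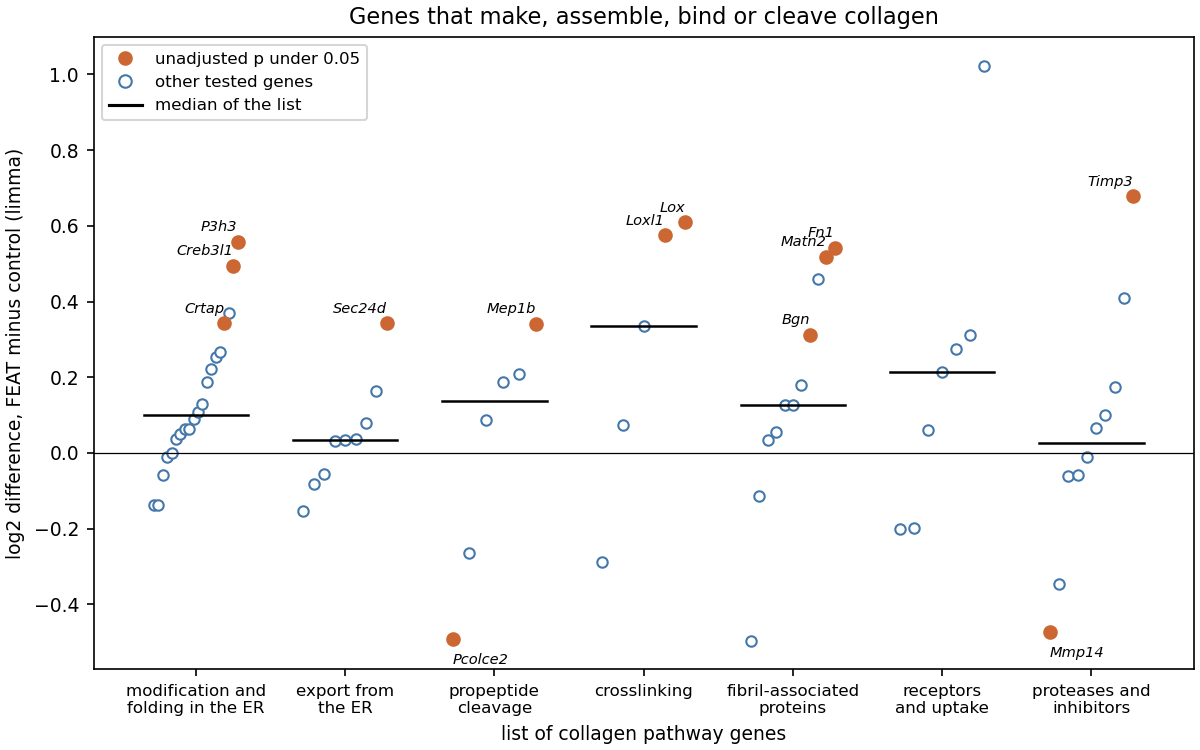
Log2 difference, FEAT minus control (limma), of each tested gene of the 7 lists, 1 point per gene, with the list's median as a line. Filled points have an unadjusted p under 0.05, and the highest of them is Timp3 at 0.68 and the lowest Pcolce2, which was not above background on any array.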

How the data were processed

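Total RNA of 3 FEAT and 3 control lines was labelled with Cy3 after amplification and hybridised to 1 Illumina mouse bead array each, per the labels' protocols. The submitters' processing notes name BeadStudio, of a version not given in the sources used here. Deposited per-array values were linear intensities, with background still in them and no detection p in the tables used here. The authors' deposited value table multiplied each array's intensity values by 1 factor (0.925 to 1.10). The number of arrays limits the precision.

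With R 4.3.3 and limma 3.58.1, intensities were corrected with normexp fitted to the signals (offset 16), quantile normalized and taken to log2. The top 60% of probes by mean were kept, 27169 probes of 13315 named genes. The fit used lmFit and eBayes with no covariate, two-sided, with p adjusted by Benjamini-Hochberg over the tested probes and a threshold of 0.05. The brightest probe stood for a gene. A probe was above background when over the mode of its array's log2 intensities plus 3 SDs, with the SD taken around the mode from the values below it. The fit was tested on simulated data drawn on the normalized log2 scale, which did not cover the other steps.

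Probes were named through the platform annotation. Of all probes, 34885 had 1 gene, 18 several and 10378 none. Promoter windows came from RefSeq (GRCm38.p6), for 33 of 41 members. Named were collagens above background on at least 1 array, in the pathway lists up to 3 genes per list with the smallest p and any past the threshold, and Eef1aknmt. The members and lists were chosen with earlier results of these data known. Alternatives changed the background correction, the normalization, the filter, the variance estimate, the probe rule and the clones included.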

Additional observations from a re-analysis of the deposited data

How the results depend on the processing

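Clone numbers only name the clones. No paired analysis was possible because the controls are numbered 1 to 3 and the FEAT clones 3, 15 and 20, so they share 1 number. Over the collagen genes named, 326 of 333 values under alternative settings kept their direction and their side of the threshold. The exceptions were Col5a1, which passed with trended and robust variance (log2 difference 0.74), and 6 small differences that changed sign. Col2a1 gave -0.015 without control 1, within a range of -0.015 to 0.26 over the clones left out. Col16a1 gave 0.11 without control 3 and 0.15 without FEAT 20 (range -0.24 to 0.15), and Col8a1 0.028 without FEAT 3 (range -0.13 to 0.028). Col26a1 gave 0.065 without control 3 and 0.013 without FEAT 3 (range -0.15 to 0.065). The cause of these shifts was not tested.

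With trended and robust variance, 1 collagen and 1 pathway gene (Timp3) passed, against 0 and 0. Of all 13315 genes tested, 42 passed there, against 30 in the main fit. Leaving out each clone in turn, 0 to 2 pathway genes passed. The 2 were Lox and Itga11 without control 2, where 104 of 13301 genes tested passed. For Itga11 the controls left there were not above background. The number of probes that passed, 50 in all, ranged from 0 without control 1 to 158 without control 2, was 10 without control 3 and 18 without FEAT 3, so the number of calls depends on single clones. The count of fibrillar genes higher in every FEAT clone was 5 to 7, beside 12.3% to 14.2% of all genes, since fewer clones overlap less often. Outside the fibrillar group 1 gene, not above background on any array, was higher in every FEAT clone, beside 7.95% of all genes tested. It was 1 of the 3 tested beaded genes, with none of the 4 basement membrane and 13 other genes tested. The count was 0 with the deposited table (8.18% of all genes). It was also 0 with a filter on probes above background on 3 of 6 arrays (8.96%). With a clone left out it was 1 to 5, beside the same 12.3% to 14.2%. The median of all collagens was 0.29 with that filter and 0.12 to 0.26 with a clone left out, and the median of the other collagens was -0.19 to -0.072. Near-background genes such as Col5a3, Col27a1 and Col9a1 have little signal over the limit, and their differences are the least certain.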
